A study of Mus musculus with 30 samples.

Results

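The subject here is the genotype difference in naive CD4 T cells, measured by RNA-seq in 3 WT and 3 KO libraries. These are 6 of the 30 libraries of the series and were chosen by their labels alone. WT stands for control mice and KO for mice labelled as a PKA knockout. Cells came from spleen and lymph nodes, were enriched with a CD4 kit, sorted as naive cells and profiled with no stimulation. The labels do not give the strain, the age, the Cre driver or the PKA gene that was removed. Whether each library is a mouse of its own is not stated either, and the p-values below therefore rest on variation among libraries that may be technical. For comparison the text uses 6 RNA libraries of cells activated through CD3 and CD28 for 3 days, 6 RNA libraries of cells rested in IL-7 for 3 days and given forskolin at 1 ug/mL for 4 h, and 6 ATAC-seq libraries of naive cells, with 3 WT and 3 KO libraries in each set.

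Protein kinase A (PKA) is the main effector of cyclic AMP. Its regulatory subunits hold the catalytic subunits inactive until cyclic AMP binds, and the freed catalytic subunits phosphorylate targets that include the transcription factor CREB. CREB and its coactivators turn on genes that carry a cyclic AMP response element, several of which damp the pathway in return, such as phosphodiesterases that degrade cyclic AMP and the repressor forms of Crem. In T cells cyclic AMP is raised by receptors coupled to Gs, among them those for prostaglandin E2, and PKA is known to restrain signalling from the T cell receptor.

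Of 29 genes that differed between naive KO and WT cells, 13 had a known promoter under an ATAC site. Several of the 29 had no promoter in the reference and could not be scored. For 3 of the 13 genes a site at a promoter also differed, for Lmna and Rgs12 at a start site inside the gene. The site at the other Rgs12 promoter did not differ. The promoters whose sites differed are shown beside that of Prkaca, the gene with the smallest adjusted p. Each runs from 250 bases before to 50 after the start site, 5′ to 3′ on the strand of the gene, from RefSeq on GRCm38.p6. Capitals mark the short form of the cyclic AMP response element, TGACG, or its reverse complement CGTCA.
Prkaca (chr8:83972728-83973027, plus strand): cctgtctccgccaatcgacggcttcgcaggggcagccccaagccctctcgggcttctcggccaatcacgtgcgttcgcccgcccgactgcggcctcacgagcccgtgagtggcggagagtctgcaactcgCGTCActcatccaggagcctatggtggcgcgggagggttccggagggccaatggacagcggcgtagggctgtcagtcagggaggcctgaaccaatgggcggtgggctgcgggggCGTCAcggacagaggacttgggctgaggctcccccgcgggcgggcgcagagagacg
Sla2 (chr2:156887172-156887471, minus strand): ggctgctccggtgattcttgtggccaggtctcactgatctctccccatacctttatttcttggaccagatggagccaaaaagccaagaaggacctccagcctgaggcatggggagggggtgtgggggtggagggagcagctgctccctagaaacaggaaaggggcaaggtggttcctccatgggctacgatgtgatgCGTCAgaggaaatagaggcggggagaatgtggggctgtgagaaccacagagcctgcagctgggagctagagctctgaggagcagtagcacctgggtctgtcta
Lmna (chr3:88503303-88503602, minus strand): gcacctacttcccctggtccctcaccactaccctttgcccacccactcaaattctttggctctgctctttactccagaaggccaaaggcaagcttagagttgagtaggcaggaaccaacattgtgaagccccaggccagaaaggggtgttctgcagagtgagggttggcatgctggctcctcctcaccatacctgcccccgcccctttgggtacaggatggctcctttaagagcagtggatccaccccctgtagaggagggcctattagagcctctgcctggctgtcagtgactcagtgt
Rgs12, a start site inside the gene (chr5:34998828-34999127, plus strand): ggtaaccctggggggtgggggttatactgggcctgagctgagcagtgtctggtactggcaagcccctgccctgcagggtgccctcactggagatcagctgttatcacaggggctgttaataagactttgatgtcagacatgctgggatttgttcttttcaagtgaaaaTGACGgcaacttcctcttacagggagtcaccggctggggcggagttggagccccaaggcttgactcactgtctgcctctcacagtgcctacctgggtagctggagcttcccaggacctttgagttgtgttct
The promoter of Prkaca holds this short element at 2 places, those of Sla2 and Rgs12 at 1 place each, and that of Lmna at none.

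Library totals ran from 8272201 to 11289133 counts for WT and from 8837555 to 9612772 counts for KO, over 25865 gene symbols, and 11980 genes passed the filter on low counts. Levels are given as CPM, counts scaled to a fixed library total after TMM scaling, and 0 counts in a library allowed a level of up to 0.277 to 0.398 CPM (3 counts, counting error only). Cd4 stood at 1005 to 1157 CPM, and the sum of 14 markers of naive CD4 T cells at 10528 to 11825 CPM. The myeloid gene Lyz2 was near 0, with mean levels of 0.258 CPM in WT and 0.229 CPM in KO. The 16 genes of the myeloid and dendritic list summed to 32.1 to 44.2 CPM over the 6 libraries, most of it Cst3, and S100a8, Siglech and Clec9a were at 0 in all. Of the 2 CD8 genes, Cd8a stood at mean levels of 0.568 CPM in WT and 0.833 CPM in KO, and Cd8b1 at 24.3 and 27.0 CPM.

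**Figure D1:**
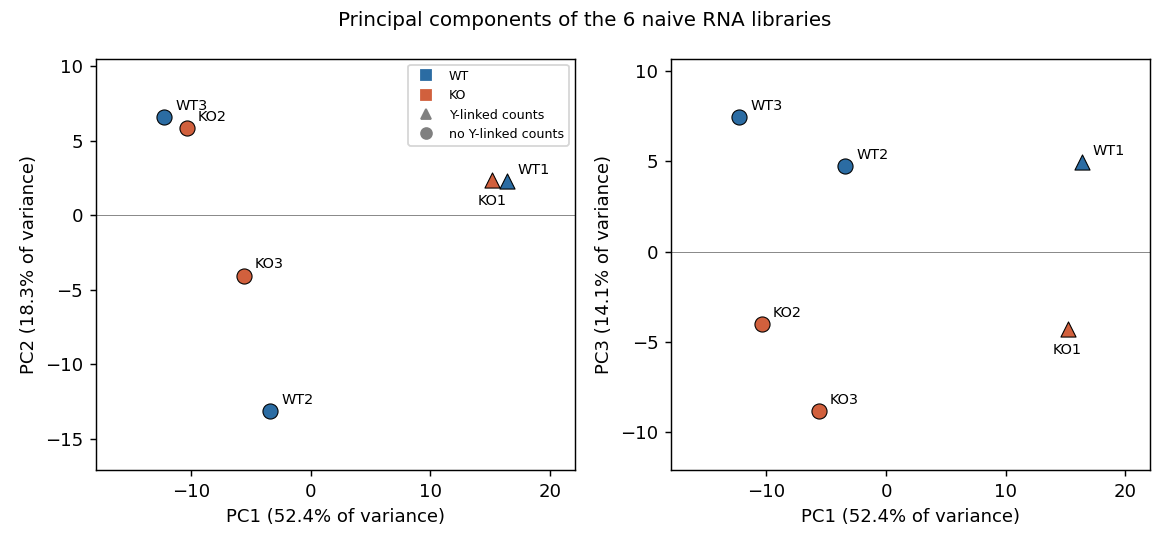
Principal components of log2 CPM of the 6 naive libraries (PC1 against PC2, left, and PC1 against PC3, right; axes give the share of variance). Colour is the genotype and triangles are the libraries with Y-linked counts; the genotypes separate along PC3, which holds 14.1% of the variance.

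The genotype was not the main source of difference between the naive libraries. The first principal component held 52.4% of the variance and set WT1 and KO1 apart from the other 4 libraries, and the second, with 18.3%, set WT2 apart. Genotype separated along the third, with 14.1%, where WT libraries lay at 4.74 to 7.44 and KO libraries at -8.86 to -4.00. Libraries 1 of both genotypes carried Y-linked transcripts, with a summed level of 299 CPM in WT1 and 289 CPM in KO1, and Xist at 0.108 and 0.461 CPM. The other 4 libraries had Xist at 275 to 379 CPM and Y-linked sums of at most 0.115 CPM. Each genotype thus held 1 library with and 2 without Y-linked transcripts, and the same split was found in the activated and the forskolin libraries.

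Pairs of libraries were compared by the SD of their log2 differences over the 8257 genes with a mean of at least 10 CPM. This SD was 0.197 to 0.339 with a median of 0.282 in the 6 pairs of the same genotype. In the 9 pairs of different genotype it was 0.179 to 0.338 with a median of 0.251. The lowest value of all belonged to WT1 and KO1, which differ in genotype. WT3 and KO2 carried the highest summed levels of ribosomal protein genes, at 179489 and 163477 CPM against 130985 to 139517 CPM in the other 4.

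Across genes the fold changes were narrow and centred near 0. Over the genes at 10 CPM or more the log2 fold change, KO over WT, had a median of -0.01 and an SD of 0.131, and it lay between -0.16 and 0.17 from the 5th to the 95th percentile. The test, edgeR's quasi-likelihood test with Benjamini-Hochberg adjustment, called 29 of 11980 genes at an adjusted p under 0.05, which is 0.242% of those tested. Of these 15 were higher in KO (0.125%) and 14 lower (0.117%), and 7 in each direction changed by at least 2-fold. At an unadjusted p under 0.05 there were 592 genes (4.94%), 331 higher (2.76%) and 261 lower (2.18%). The smallest change called was -0.44 on the log2 scale, among genes at 20 to 100 CPM, where the median SE was 0.0948. Below 1 CPM the median SE was 0.659, so changes of this size were not detectable there. In the same fit the activated libraries gave 1789 calls (14.9%), and the forskolin libraries in a fit of their own gave 4484 of 11658 (38.5%).

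**Figure D2:**
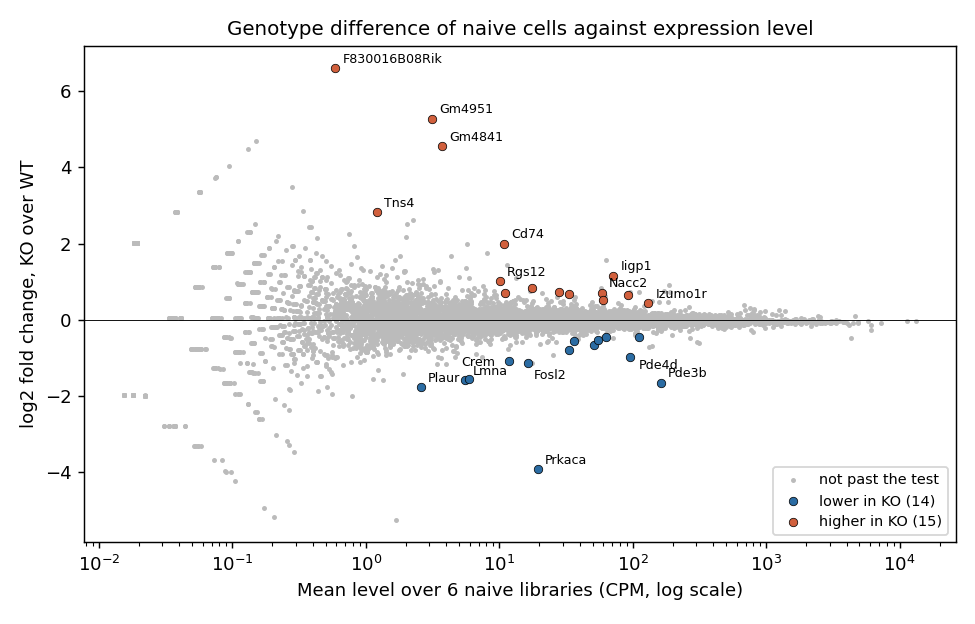
The log2 fold change (KO over WT, vertical axis) of the 11980 genes tested against their mean level over the 6 naive libraries (CPM, log scale). Genes past the test are coloured, 14 lower and 15 higher in KO; F830016B08Rik is drawn at its fitted value, which depends on a prior count because WT had 0 counts.

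The count of calls moved with single libraries. Leaving out a naive library gave 11 calls without WT2, 12 without KO3 and 17 without KO1, and 24 to 38 without each of WT1, WT3 and KO2. Every called gene kept its direction in all the fits tried, and 10 of the 29 were called in all 6 of the fits that leave out a naive library: Prkaca, Pde3b, Gpr171 and Fosl2, which were lower in KO, and Gm4841, Gm4951, Iigp1, Nacc2, F2r and Rgs12, which were higher. The levels of WT and KO libraries did not overlap for any of the 29, where 8.34% of all genes tested showed no overlap (4.24% higher and 4.10% lower in KO). Without overlap the difference of the means keeps its sign whichever library is left out, so the kept direction is not a separate check. A fit of the 6 naive libraries alone, without the activated ones, called 23 genes (13 higher, 10 lower), 19 of them among the 29. With the 4 naive libraries that lack Y-linked transcripts in the shared fit, an alternative chosen after seeing the data, 23 genes were called, 17 of them among the 29.

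**Figure D3:**
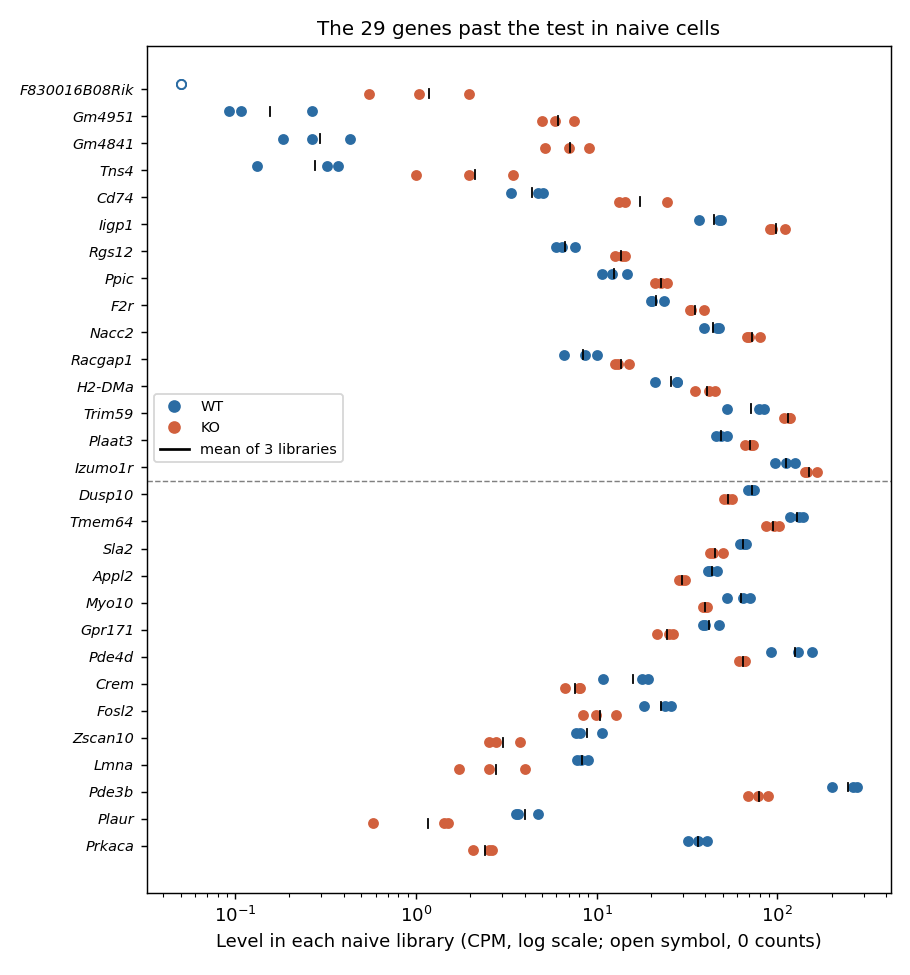
Levels of the 29 called genes in each naive library (CPM, log scale; blue WT, orange KO, black lines the mean of 3 libraries). The dashed line divides genes higher in KO (above) from genes lower in KO (below), and in every row the libraries of the genotypes do not overlap.

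Among the genes of PKA itself only Prkaca, which encodes the catalytic subunit alpha, changed. Prkaca stood at 36.4, 41.0 and 32.1 CPM in WT libraries 1 to 3 and at 2.08, 2.55 and 2.65 CPM in KO libraries 1 to 3. All KO libraries were far below all WT libraries, and the KO level was low but above 0. The log2 fold change was -3.91 ± 0.16 (SE, edgeR adjusted p = 1.64e-10), and the KO level was 0.0665 times that of WT. The labels do not say which gene was removed, so this is the check that the files allow. The other 6 PKA subunit and inhibitor genes tested (Prkacb, Prkx, Prkar1a, Prkar2a, Prkar2b and Pkig) did not pass the test and lay between -0.16 and 0.06 on the log2 scale. Prkacb, the catalytic subunit beta, had 117 to 131 CPM in WT and 120 to 125 CPM in KO, and the regulatory subunit gene Prkar1a had 433 to 547 and 411 to 464 CPM. Of the 7 genes of this list 0 were higher and 1 lower (0.125% and 0.117% of all genes), with a median of -0.14 against -0.01 over all genes tested.

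Genes known to respond to cyclic AMP and CREB were lower in KO where they changed. Of 26 in the list 4 were lower and 0 higher (Pde3b, Pde4d, Fosl2 and Crem), where 0.117% of all genes were lower, with a median log2 fold change of -0.12, and 8 were lower and 0 higher at an unadjusted p under 0.05, where 2.18% of all genes were lower. Both phosphodiesterases are also among the 12 phosphodiesterase genes tested, of which they were the only ones called (0.242% of all genes were called). The list was compiled with earlier results of these data known.

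Pde3b, a phosphodiesterase that degrades cyclic AMP, stood at 199.9, 275 and 262 CPM in WT and at 68.8, 89.0 and 78.2 CPM in KO. Every WT library was far above every KO library. Pde3b had a log2 fold change of -1.64 ± 0.12 (SE, edgeR adjusted p = 3.99e-06). Pde4d, of the cyclic AMP specific family, stood at 91.7, 155 and 129.7 CPM in WT and at 66.4, 61.5 and 65.8 CPM in KO. The WT libraries of Pde4d were widely spread, with WT1 lowest, and the KO libraries lay close together. Its log2 fold change was -0.96 ± 0.14 (edgeR adjusted p = 0.00708), and it lost its call without WT3, KO1, KO2 or KO3 (adjusted p up to 0.0880). Pde4d also lost its call with the naive libraries alone in the fit (edgeR adjusted p up to 0.379 over all settings). Pde4b, at 123 CPM in WT and 127 CPM in KO, had a log2 fold change of 0.05 and did not pass.

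Fosl2, which encodes the AP-1 member FRA-2, stood at 25.7, 24.0 and 18.3 CPM in WT and at 12.8, 9.97 and 8.41 CPM in KO. Every KO library was below the lowest WT library. Fosl2 had a log2 fold change of -1.13 ± 0.15 (edgeR adjusted p = 0.00179). Crem, the cyclic AMP response element modulator, which yields both activating and repressing proteins, stood at 10.8, 17.7 and 19.2 CPM in WT and at 7.96, 8.09 and 6.68 CPM in KO. WT1 lay closer to the KO libraries than to WT2 and WT3. Crem had a log2 fold change of -1.07 ± 0.19 (edgeR adjusted p = 0.0179) and kept its call in 1 of the 6 fits that leave out a naive library (adjusted p up to 0.170). Crem also lost its call with the naive libraries alone in the fit and with limma-voom. The gene is on chromosome 18.

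A further 4 genes of the same list were lower at an unadjusted p under 0.05 and did not pass the test. They were the nuclear receptor genes Nr4a1 at -0.36 and Nr4a3 at -0.55, the salt-inducible kinase gene Sik1 at -0.64 and the clock gene Per1 at -0.29 on the log2 scale (edgeR adjusted p from 0.119 to 0.952). Nr4a3 passed without WT1 (adjusted p = 0.0346) and Sik1 without WT3 (adjusted p = 0.0229). Over 24 settings Nr4a3 passed in 3 and Sik1 in 4, which for Sik1 include DESeq2 (adjusted p = 0.0154). The immediate early genes Junb, at -0.03, and Egr1, at 0.10, did not pass either. Among the CREB family and its coactivators 1 of 13 was lower and 0 higher (0.117% and 0.125% of all genes), and that gene was Crem.

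The other genes lower in KO span receptors, signalling proteins and structural proteins. Gpr171, a G protein coupled receptor, stood at 38.6, 39.8 and 47.8 CPM in WT and at 21.6, 26.4 and 25.2 CPM in KO. The libraries within each genotype of Gpr171 were close, and its log2 fold change was -0.78 ± 0.10 (edgeR adjusted p = 0.00178). Plaur, the urokinase receptor, stood at 4.75, 3.70 and 3.58 CPM in WT and at 1.499, 1.44 and 0.576 CPM in KO. KO3 was the lowest of these, and the log2 fold change of Plaur was -1.76 ± 0.31 (edgeR adjusted p = 0.0179).

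Lmna, which encodes the nuclear lamins A and C, stood at 7.78, 8.97 and 8.23 CPM in WT and at 4.04, 2.55 and 1.73 CPM in KO, a log2 fold change of -1.59 ± 0.26 (edgeR adjusted p = 0.00866). Zscan10, a zinc finger transcription factor gene, stood at 7.67, 10.7 and 8.10 CPM in WT and at 2.54, 3.77 and 2.77 CPM in KO, a change of -1.55 ± 0.26 (adjusted p = 0.0143). For both genes the highest KO library was well below the lowest WT library. The unconventional myosin gene Myo10 fell by 0.66 on the log2 scale, from a mean of 62.6 ± 9.39 CPM to 39.7 ± 0.88 CPM (SD, n = 3, edgeR adjusted p = 0.00866).

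The remaining 4 changed by less. Sla2, an adaptor that restrains T cell receptor signalling, fell from 64.9 ± 2.52 to 45.4 ± 3.94 CPM (SD, n = 3, log2 fold change -0.52 ± 0.09, edgeR adjusted p = 0.0245). Dusp10, a phosphatase of the stress MAP kinases, fell from 72.0 ± 2.59 to 53.3 ± 2.57 CPM (-0.44 ± 0.08, edgeR adjusted p = 0.0287). The libraries of both genes were tightly grouped, and Sla2 kept its call in 2 and Dusp10 in 1 of the 6 fits that leave out a naive library. The endosomal adaptor gene Appl2 fell by 0.55 and the membrane protein gene Tmem64 by 0.44 on the log2 scale (edgeR adjusted p = 0.0304 and 0.0179). Appl2 kept its call in 1 and Tmem64 in 3 of these 6 fits.

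Among the genes higher in KO, 5 lie within 1 Mb of each other on chromosome 18, and Ppic lies elsewhere on it. With Crem, chromosome 18 held 7 of the 29 called genes and 273 of the 11825 tested genes with a RefSeq position. Of the 5 neighbours 4 (Gm4951, Gm4841, F830016B08Rik and Iigp1) stand next to each other between positions 60212004 and 60392634 (GRCm38.p6) and belong to the interferon-inducible GTPases, which in mice act against intracellular pathogens. Members of this family resemble each other in sequence, and how reads that fit several of them were counted is not given in the sources used here, so the split of counts among them is uncertain.

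Gm4951 had 0.108, 0.0924 and 0.265 CPM in WT, which are 4 counts in all, and 5.88, 4.99 and 7.49 CPM in KO. Gm4841 had 0.432, 0.185 and 0.265 CPM in WT and 7.03, 5.21 and 9.10 CPM in KO. For both genes the WT libraries were at or near the limit of 3 counts and the KO libraries were clearly above it. The log2 fold change was 5.28 ± 0.43 for Gm4951 and 4.56 ± 0.37 for Gm4841 (edgeR adjusted p = 2.81e-06 for both). F830016B08Rik had 0 counts in all WT libraries and 31 counts in all in the KO libraries (0.554 to 1.96 CPM), which is at least 10.8-fold higher against a floor of 3 counts over the WT group (edgeR adjusted p = 0.0245). F830016B08Rik kept its call in 2 of the 6 fits that leave out a naive library.

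Iigp1 was already expressed in WT, at 48.8, 36.9 and 47.4 CPM, and stood at 91.3, 93.5 and 111 CPM in KO. Every KO library was above every WT library, and the log2 fold change of Iigp1 was 1.16 ± 0.10 (edgeR adjusted p = 8.85e-06). Cd74, the invariant chain of MHC class II, lies 411215 bases from the nearest other called gene of this group. The 6 tested genes between Iigp1 and Cd74 (Smim3, Dctn4, Rbm22, Synpo, Ndst1 and Rps14) did not pass the test; Dctn4, at 42.5 CPM in WT and 44.8 CPM in KO, and Ndst1, at 76.0 and 78.8 CPM, differed by 0.08 and 0.05 on the log2 scale. Smim3 had 0 CPM in WT and a mean of 0.303 CPM in KO (edgeR adjusted p = 0.340), and Synpo had 0.766 and 1.68 CPM (log2 fold change 1.12 ± 0.57, adjusted p = 1).

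Other interferon-stimulated genes did not pass the test. Of 26 in the list 1 was higher and 0 lower (0.125% and 0.117% of all genes), with a median of 0.03 on the log2 scale. Gbp3, a guanylate-binding protein gene, missed the threshold at 0.59 ± 0.12 (edgeR adjusted p = 0.0685) and passed without WT1 (adjusted p = 0.0361). Gbp3 passed in 4 of 24 settings, among them DESeq2 (adjusted p = 0.0109). Ifngr1, a chain of the receptor for interferon gamma, had 119, 194 and 179.6 CPM in WT and 97.2, 99.9 and 105 CPM in KO, a log2 fold change of -0.70 ± 0.14 that did not pass (edgeR adjusted p = 0.0789). WT1 was the lowest WT library of Ifngr1, and without it the change was -0.90 (adjusted p = 2.61e-05); the gene passed in 6 of 24 settings.

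Genes of MHC class II antigen presentation, most of them at low levels, gave 2 calls, both higher in KO. Of the 9 tested 2 were higher and 0 lower, where 0.125% of all genes were higher and 0.117% lower. All 9 had a positive log2 fold change, where 5609 of the 11980 genes tested did, and their median was 1.68. Cd74 had 3.35, 4.71 and 5.04 CPM in WT and 14.4, 13.3 and 24.7 CPM in KO, with KO3 highest, a log2 fold change of 1.999 ± 0.26 (edgeR adjusted p = 0.00857). H2-DMa, which loads peptides onto class II molecules, had 28.0, 21.2 and 27.9 CPM in WT and 34.9, 41.7 and 45.4 CPM in KO, a change of 0.67 ± 0.13 (adjusted p = 0.0400). Cd74 kept its call in 4 and H2-DMa in 3 of the 6 fits that leave out a naive library. Over 24 settings Cd74 kept it in 19 and H2-DMa in 14. The class II chain genes H2-Ab1, at 0.638 ± 0.602 against 3.43 ± 1.37 CPM, and H2-Eb1, at 0.912 against 2.73 CPM, did not pass (SD, n = 3, edgeR).

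B cells express class II, and their markers were summed beside these genes. The sum of 13 B cell genes other than Ighm was 4.62 to 7.43 CPM in WT and 9.20 to 11.3 CPM in KO (exact permutation test over libraries, two-sided, p = 0.1, the smallest that 3 against 3 allows, and 0.33 adjusted over 33 such sums). With Ighm, whose level is far higher, the sum was 323 to 335 CPM in WT and 319.7 to 333 CPM in KO. None of the 14 was at 0 in all libraries, and of the 4 B cell genes tested 0 passed. The sum of 6 red cell genes was 1.95 to 7.70 CPM in WT and 7.03 to 15.6 CPM in KO (exact permutation p = 0.2, 0.508 adjusted), and that of 16 myeloid and dendritic genes was 34.5 to 44.2 and 32.1 to 39.2 CPM. The part of such cells in the class II difference was not tested. In bulk RNA more cells of a type and more RNA per cell cannot be told apart.

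A further 3 genes higher in KO were among the most stable over libraries. Rgs12, which speeds the switching off of G proteins, had 7.56, 6.47 and 5.97 CPM in WT and 12.7, 13.8 and 14.3 CPM in KO, a log2 fold change of 1.02 ± 0.15 (edgeR adjusted p = 0.00403). F2r, the thrombin receptor PAR1, had 19.99, 20.2 and 23.5 CPM in WT and 33.4, 32.8 and 39.3 CPM in KO, a change of 0.73 ± 0.11 (adjusted p = 0.00299). Nacc2, a transcriptional repressor gene, had 39.1, 47.5 and 46.2 CPM in WT and 67.6, 80.1 and 70.1 CPM in KO, a change of 0.71 ± 0.10 (adjusted p = 0.00299). All 3 were grouped tightly within genotype and were called in all 6 fits that leave out a naive library.

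Among the rest, Izumo1r, the folate receptor 4 of regulatory and anergic T cells, rose from 111 ± 13.9 to 150.5 ± 12.6 CPM (SD, n = 3, log2 fold change 0.44 ± 0.09, edgeR adjusted p = 0.0400). Izumo1r kept its call in 1 of the 6 fits that leave out a naive library and in 11 of 24 settings. It lost its call with the naive libraries alone in the fit. It was the called member of 12 regulatory T cell genes, of which 1 was higher and 0 lower (0.125% and 0.117% of all genes) and whose median was 0.27. In that list 11 of 12 genes had a positive log2 fold change, where 5609 of the 11980 genes tested did. Of the 12, 6 were higher and 1 lower at an unadjusted p under 0.05, where 2.76% and 2.18% of all genes were. The summed level of the list was 219 to 255 CPM in WT and 267 to 295 CPM in KO (exact permutation p = 0.1, 0.33 adjusted over 33 sums). Foxp3, the defining factor of these cells, stood at 4.11 to 5.29 CPM in WT and 4.84 to 5.54 CPM in KO. Racgap1, which acts in cytokinesis, rose by 0.70 ± 0.13. Racgap1 kept its call in 1 of the 6 fits that leave out a naive library and in 13 of 24 settings. Of 27 cell cycle genes 0 passed in either direction and 14 had a positive log2 fold change. At an unadjusted p under 0.05, 5 of the 27 were higher and 0 lower, where 2.76% and 2.18% of all genes were. Plaat3, a phospholipase and acyltransferase gene, rose by 0.52 ± 0.09, the cyclophilin gene Ppic by 0.85 ± 0.16, and Trim59 by 0.67 ± 0.12, with adjusted p from 0.0153 to 0.0356 (edgeR). Tns4, a tensin gene, had 0.133 to 0.370 CPM in WT and 0.997 to 3.46 CPM in KO (log2 fold change 2.83 ± 0.54, adjusted p = 0.0314). Of the 6 fits that leave out a naive library, Plaat3 kept its call in 3, Trim59 in 2, and Ppic and Tns4 in 1 each.

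Genes of the IL-12 response and of Th1 cells, both named in the study's title, did not pass the test in naive cells with all libraries. Stat4, the transcription factor of IL-12 signalling, had 113, 133 and 111 CPM in WT and 108, 102 and 106 CPM in KO, without overlap (as for 8.34% of all genes tested), and a log2 fold change of -0.18 ± 0.08 (edgeR adjusted p = 0.95). The receptor chain gene Il12rb1 had 3.51 to 4.54 CPM in WT and 4.88 to 8.53 CPM in KO, a change of 0.77 ± 0.20 (adjusted p = 0.218), and it passed without KO2 (adjusted p = 0.0453) and with DESeq2 (adjusted p = 0.0286). Il12rb2 had 1.02 to 1.59 and 0.443 to 1.15 CPM. Tbx21, the Th1 factor T-bet, stayed below 0.65 CPM in all 6 libraries, and Ifng had 0 counts in all 6. Of 15 genes of the IL-12 response and Th1 list 0 passed in either direction, with a median of 0.00. Ifngr1, described above, and Eomes, a T-box factor gene, belong to this list too, and Eomes passed with DESeq2 alone (adjusted p = 0.0276).

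Other lists gave few or no calls. Of 25 genes of T cell receptor signalling, 22 of naive and quiescent cells, 17 of glycolysis and 27 of cholesterol and fatty acid synthesis, 0 passed, and their medians lay between -0.03 and 0.06 on the log2 scale. Of 24 genes of activated and memory cells 0 passed, with a median of 0.32. In this list 18 had a positive log2 fold change, where 5609 of the 11980 genes tested did. At an unadjusted p under 0.05, 6 of the 24 were higher and 2 lower, where 2.76% and 2.18% of all genes were. Among genes of follicular helper T cells (9), p53 targets and apoptosis (16), adenylyl cyclases and Gs receptors (14) and stress (17) 0 passed as well, with medians of 0.17, 0.08, 0.02 and 0.05. All 9 follicular helper genes had a positive log2 fold change. In the activated and memory list the adhesion receptor gene Cd44 had 38.8, 33.2 and 26.8 CPM in WT and 20.2, 19.4 and 13.2 CPM in KO (log2 fold change -0.91 ± 0.18, edgeR adjusted p = 0.0822), and the costimulatory receptor gene Icos had 33.0, 27.1 and 29.6 CPM in WT and 39.7, 38.3 and 40.8 CPM in KO (0.41 ± 0.09, adjusted p = 0.0657). Neither gene overlapped between genotypes, where 8.34% of all genes tested showed no overlap. Cd44 passed without WT3 (adjusted p = 0.0461), activated WT1 (0.0160) or activated WT3 (0.0416), and Icos passed without WT1 (0.0277). Cd44 also passed with DESeq2 (adjusted p = 1.66e-05) and with the naive libraries alone and a replicate block (edgeR, 0.00201). Icos also passed with DESeq2 (0.0143) and with no low-count filter (edgeR, 0.0145). Over 24 settings Cd44 passed in 5 and Icos in 4.

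A few genes of no list lay just outside the threshold. Luzp1 had 2.49 to 4.62 CPM in WT and 6.87 to 10.5 CPM in KO (log2 fold change 1.10 ± 0.22, edgeR adjusted p = 0.0530). Prr13 and Lpin2 were 0.39 and 0.42 higher on the log2 scale and Snx9, a sorting nexin gene, was at -0.86 (adjusted p from 0.0657 to 0.0698). Over 24 settings Luzp1 passed in 7, Snx9 in 6, Prr13 in 5 and Lpin2 in 4. The genotypes did not overlap for any of these 4 genes, where 8.34% of all genes tested showed no overlap. The genes were picked by their small p, so this is a description.

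The called genes were then followed in activated and in forskolin-treated cells. The activated libraries share the fit, and so the estimate of spread, with the naive ones (22 naive calls without activated KO2 and 42 without activated WT1), while the forskolin libraries do not. Of the 14 genes lower in naive KO cells, 12 were lower in activated KO cells (9.04% of all genes tested were) and 13 with forskolin (18.8%), and all 14 had a negative log2 fold change in both. Of the 15 higher genes, 8 were higher in activated cells (5.89%), and 11 of the 14 that could be tested were higher with forskolin (19.7%). None was called in the opposite direction in either condition. The median log2 fold change of the lower genes was -1.01 in naive cells, -2.33 in activated cells and -2.54 with forskolin. For the higher genes these medians were 0.85, 0.64 and 1.14.

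**Figure D4:**
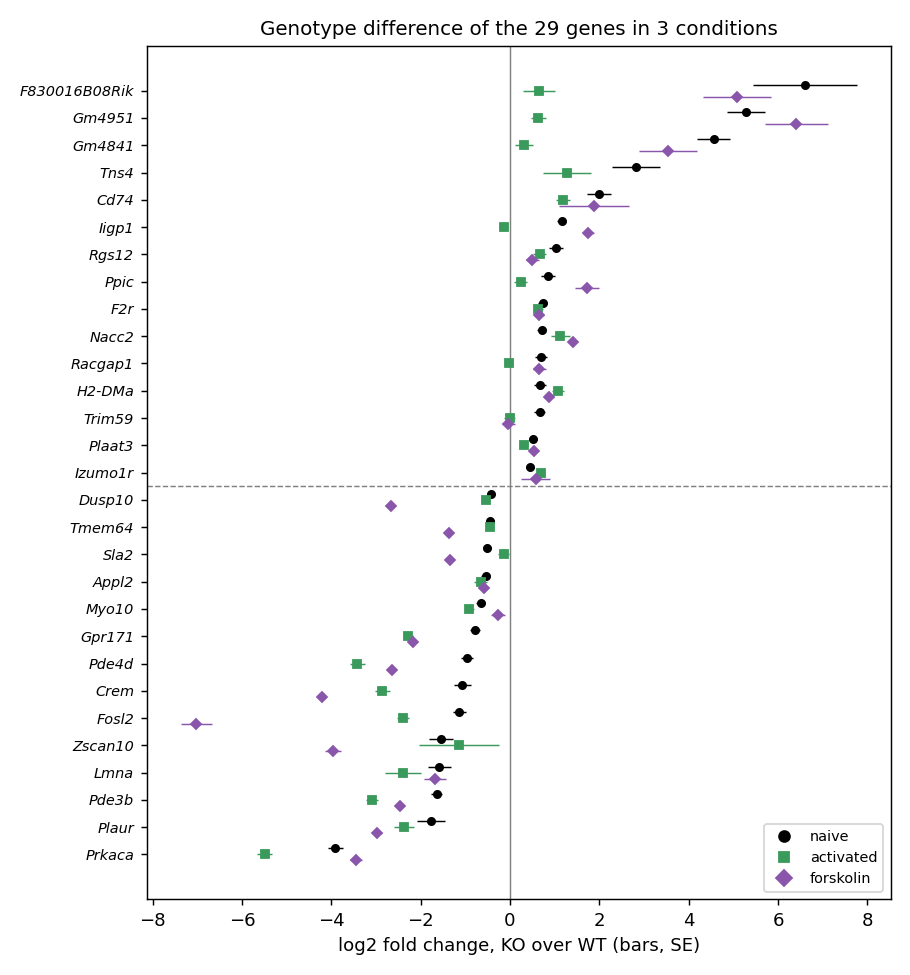
The log2 fold change, KO over WT, of the 29 called genes in naive (black circles), activated (green squares) and forskolin-treated cells (purple diamonds), with SE as bars. All 14 lower genes lie below 0 in every condition, while Gm4951, Gm4841, F830016B08Rik and Iigp1 lie between -0.14 and 0.66 in activated cells.

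The genotype difference changed with activation for 12 of the 29 genes (3.70% of all genes tested, 1.18% upward and 2.52% downward), by the interaction term of the same fit. Since the naive difference chose these genes and enters the interaction, this count is a description. Prkaca, Pde3b, Gpr171, Fosl2, Pde4d and Crem were further below WT after activation. Pde4d moved from -0.96 in naive to -3.42 in activated cells (interaction -2.46 ± 0.22, edgeR adjusted p = 1.45e-05), and Crem from -1.07 to -2.86. Gm4841, Gm4951, Iigp1, F830016B08Rik, Racgap1 and Trim59 lost most of their difference. Iigp1 moved from 1.16 to -0.14 (interaction -1.30 ± 0.14, edgeR adjusted p = 1.76e-05) and stood at 1.75 ± 0.12 with forskolin.

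Open chromatin in naive cells was measured in other libraries and differed at many of the same genes, in the same direction. Sites were tied to a gene within its RefSeq span or 10 kb on either side. At the 14 lower genes 26 of 148 sites tested had lower counts in KO and 0 higher, against 1.29% lower among all 74371 sites tested, of which 1565 (2.10%) differed in either direction. At the 15 higher genes 27 of 82 sites were higher and 0 lower, against 0.816% higher among all sites. The median log2 fold change of the sites was -0.22 at the lower and 0.46 at the higher genes. A lower site was present at 12 of the 14 lower genes, against 5.04% of the 11485 genes tested that have a site, and a higher site at 11 of the 15 higher genes, against 3.03%. The lower and higher genes have a median of 6.5 and 6 tested sites, where all genes have a median of 4, so these shares are not matched for the number of sites. Without the ATAC library KO3 the sites called at these genes fell from 53 to 26 and those called over all sites from 1565 to 550. By the FDR of the authors' deposited table, 19 of 110808 sites passed (0.0171%), of which 6 lay at these genes. Of the 6 sites, 5 lay at Gm4841, Gm4951 and F830016B08Rik on chromosome 18, and 1 lay at Pde3b.

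**Figure D5:**
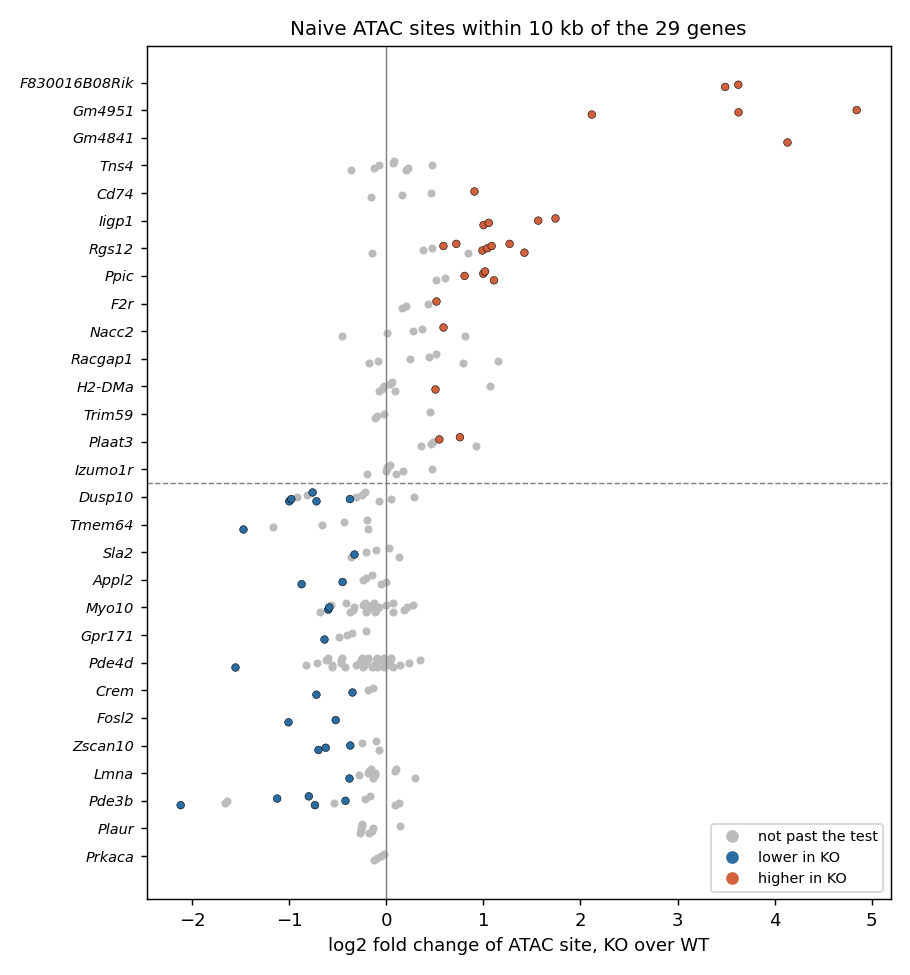
The log2 fold change, KO over WT, of each tested naive ATAC site within 10 kb of the 29 called genes. Sites past the test are coloured and number 26 at the lower genes, all below 0, and 27 at the higher genes, all above 0.

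Single sites show the size of these differences. A site inside Pde3b, at chr7:114494054-114494454, had 40.0, 38.0 and 40.3 CPM in WT and 18.4, 19.0 and 16.8 CPM in KO (log2 fold change -1.12 ± 0.07, edgeR adjusted p = 6.53e-07). A site upstream of Fosl2, at chr5:32133533-32133933, had 17.1, 14.5 and 14.96 CPM in WT and 8.40, 8.05 and 6.81 CPM in KO (-1.01 ± 0.11, adjusted p = 7.81e-05). At both sites the KO libraries lay at about the same level and well apart from WT. A site inside Tmem64, at chr4:15273208-15273608, fell by 1.48 on the log2 scale, where its RNA fell by 0.44. The single site at Gm4841 had 0.373 to 0.570 CPM in WT and 7.24 to 11.4 CPM in KO (4.13 ± 0.25, adjusted p = 9.38e-07), and all 4 tested sites at Iigp1 were higher. By the authors' deposited FDR the site at Gm4841 passed (9.69e-08). The sites described here for Pde3b, Fosl2 and Tmem64 did not pass by it (0.656 each), nor did any site at Iigp1.

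Of 14 promoters under a site, from 13 called genes, 3 were under a called one. The site at the promoter of Sla2 shown above had 41.2, 39.2 and 41.7 CPM in WT and 31.9, 32.4 and 32.7 CPM in KO (log2 fold change -0.33 ± 0.07, edgeR adjusted p = 0.0118). The site at the inner start site of Lmna had 26.2, 27.7 and 26.5 CPM in WT and 21.5, 21.0 and 19.0 CPM in KO (-0.39 ± 0.08, edgeR adjusted p = 0.0113). That of the inner start site of Rgs12 had 0.263 to 0.331 CPM in WT and 0.626 to 0.893 CPM in KO (1.42 ± 0.35, edgeR adjusted p = 0.0461). None of these 3 sites passed by the authors' deposited FDR (0.656 each). A site at the 5′ end of Lmna, chr3:88509928-88510328, had 152 to 181 CPM in WT and 136 to 161 CPM in KO. It did not pass (-0.18 ± 0.08, edgeR adjusted p = 0.361). The site at the other Rgs12 promoter had 13.7 to 20.3 CPM in WT and 14.0 to 19.1 CPM in KO. It did not pass either (-0.14 ± 0.15, edgeR adjusted p = 0.783). The site at the promoter of Prkaca had 129 to 135 CPM in WT and 114 to 125 CPM in KO and did not pass (-0.13 ± 0.06, adjusted p = 0.420), although its RNA fell by 3.91.

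The promoters of the called genes were searched for cyclic AMP response elements and for interferon motifs. The table of promoters held 10 of the 14 lower and 8 of the 15 higher genes. Among the lower genes, Pde3b, Crem, Gpr171 and Tmem64 had no promoter in it and were not searched. Among the higher genes this held for Gm4841, Gm4951, F830016B08Rik, Iigp1, Cd74, Ppic and Tns4. The counts below therefore leave out all 4 of the interferon-inducible GTPases called. The full element TGACGTCA was in 0 of the 10 and 0 of the 8, and in 3.75% of 9404 tested genes with a promoter. The short element TGACG, on either strand, was in 3 of the 10 lower genes, Prkaca, Myo10 and Sla2, in 1 of the 8 higher genes, Rgs12, and in 36.5% of those tested. Each full element also holds a short element and is counted with both. The GAS motif TTCNNNGAA was in 1 of the 10 lower and 0 of the 8 higher genes (8.39% of those tested), and the ISRE core GAAANNGAA in 2 and 0 (8.68%). A match is a description of these 300 bases and not of binding.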

How the data were processed

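RNA was measured in 18 libraries and open chromatin (ATAC-seq) in 6 naive libraries, 3 WT and 3 KO in each set. The authors deposited raw read counts per gene, raw counts per ATAC site, and a table of ATAC log2 concentrations and log2 fold changes with p-values and FDR, per the file headers. The build is mm10 per the submitters' processing notes; the aligner, the counter, the strand setting and the peak caller are not given in the sources used here. Genes without a symbol (1314 features, 0.128% to 0.159% of a library's counts) were left out. The activated ATAC table was not used here.

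Counts were filtered with filterByExpr, scaled with TMM and tested with edgeR 4.0.16 (quasi-likelihood test, robust) in R 4.3.3, with Benjamini-Hochberg adjustment at 0.05 over all genes. Naive and activated RNA shared one fit of 12 libraries, and forskolin RNA and naive ATAC each had their own. A fold change is KO over WT, on the log2 scale, with the SE of the fit; levels carry the SD of 3 libraries. Sums over marker lists were compared with an exact two-sided permutation test (scipy 1.17.1). The alternatives used DESeq2 1.42.0, limma 3.58.1 (voom), other scalings and filters, and each library left out in turn. The fit was tested on simulated data. Xist and Y-linked genes are given as levels only.

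The text names every gene past the test, the PKA subunits, cyclic AMP and CREB targets at an unadjusted p under 0.05, the IL-12 and Th1 genes, the 6 genes nearest the threshold and some of the leading members of each list, the rest of which stand only in the counts; Pde4b, Junb, Egr1, H2-Eb1, marker genes of other cells, the neighbours on chromosome 18 and single ATAC sites were picked with their values in view. The lists and the comparison were chosen with earlier results of these data known.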

Additional observations from a re-analysis of the deposited data

Results flagged for a closer look

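For 12 of the 29 genes the genotype difference of activated cells was not that of naive cells, by the interaction term of the shared edgeR fit (log2 scale, activated minus naive, ± SE). Since the naive difference chose these genes and is part of the interaction, the values describe the genes and support nothing further. Among genes lower in naive KO cells, the difference was larger after activation for Prkaca (-1.58 ± 0.29, adjusted p = 0.00286), Pde3b (-1.45 ± 0.19, adjusted p = 0.000281), Gpr171 (-1.50 ± 0.15, adjusted p = 8.63e-06), Fosl2 (-1.26 ± 0.20, adjusted p = 0.000992), Pde4d (-2.46 ± 0.22, adjusted p = 1.45e-05) and Crem (-1.79 ± 0.25, adjusted p = 0.000367). Among genes higher in naive KO cells, it was smaller after activation for Gm4841 (-4.24 ± 0.44, adjusted p = 1.2e-05), Gm4951 (-4.64 ± 0.51, adjusted p = 1.76e-05), Iigp1 (-1.30 ± 0.14, adjusted p = 1.76e-05), F830016B08Rik (-5.94 ± 1.35, adjusted p = 0.0202), Racgap1 (-0.72 ± 0.16, adjusted p = 0.0144) and Trim59 (-0.67 ± 0.17, adjusted p = 0.0448). The value for F830016B08Rik depends on the prior count, since its naive WT libraries had 0 counts. The counts of Gm4841, Gm4951, F830016B08Rik and Iigp1 may be split among similar genes.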

How the results depend on the processing

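The count of 29 genes (15 higher, 14 lower) was 59 with DESeq2 (37 higher, 22 lower), 14 at an adjusted p under 0.01 (7 and 7), and 23 higher genes at 0.1 or with no low-count filter. With 2 choices made after seeing the data it was 53 with a term for libraries with Y-linked counts (30 and 23) and 19 without WT3 and KO2 together (13 and 6). Leaving out 1 library gave 11 to 42 genes, 6 to 23 higher and 4 to 23 lower; without activated KO2 9 were higher, and without activated WT1 23. Replicate numbers matched the samples for number 1 and not for numbers 2 and 3. The correlation of deviations from the group means was r = 0.73, 0.00337 and 0.181 for numbers 1 to 3. Across numbers it was 0.588 for WT3 and KO2 and 0.413 for WT2 and KO3. The main fit did not pair libraries. With the replicate block 43 genes passed (23 higher), 46 with the block in the naive libraries alone (29 higher), and 6171 ATAC sites, 88 of them at the called genes. The 1565 ATAC sites (53 at the called genes) became 658 (32) at an adjusted p under 0.01 and 19 (6) by the FDR of the authors' deposited table. Leaving out a library gave 550 (without KO3) to 2207 sites, 949 without WT1 and 1031 without WT2, and 26 (without KO3) to 53 at the genes. Called genes lost their call in 137 of 690 fits and changed direction in 0. The kept direction is not a separate check, since the levels of these genes did not overlap between genotypes. Of 52 named genes that did not pass, 16 gained a call in some fit (58 of 1233 fits) and 9 changed sign. Over the fits that leave out 1 library the log2 fold change ran from -0.060 to 0.047 for Prkacb, -0.0098 to 0.12 for Prkar2a, -0.25 to 0.054 for Prkar2b, -0.39 to 0.086 for Pkig, -0.23 to 0.58 for Tbx21, -0.34 to 0.0021 for Slc16a3, -0.16 to 0.055 for Ldha, -0.093 to 0.63 for Itga2b and -0.091 to 0.024 for Pecam1. Without WT3 and KO2 together Prkar2a stood at -0.041, and without the libraries with Y-linked counts Itga2b stood at -0.095. None of these reversals passed the test, and their cause was not tested. With 3 libraries a group, changes of genes under 1 CPM were mostly not detectable.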
